A study of Mus musculus with 10 samples.

Results

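The 10 genes described here encode the transcription factor Nrf2, its partner Keap1 and 8 enzymes and transporters of glutathione, thioredoxin, quinone and heme metabolism. They are 10 of the 32506 genes in the count table, listed by name and matched by Ensembl identifier, and the list was drawn up when the fall of Gclm in these data was already known. All 10 passed the filter on low counts, which left 16974 genes to be tested. RNA was sequenced from the lumbar spinal cord of 5 SOD1G86R mice, which are hemizygous for a transgene of mutant superoxide dismutase (genotype SOD1G86R +/-), and of 5 wild type (WT) mice without it. All were female FVB/N mice of 95 days, the WT mice matched for age and litter, and each gave 1 library. The transgenic mice overexpress the mutant enzyme and had motor symptoms at this age, with weakness that the paper describes as mild to severe. The severity in each mouse is not given in the sample labels used here. The promoter that drives the transgene is not given in the sources used here.

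Nrf2, encoded by Nfe2l2, is held in the cytoplasm by Keap1, which leads it to degradation. When oxidants or electrophiles modify cysteines of Keap1, Nrf2 enters the nucleus, binds antioxidant response elements with small Maf proteins and activates genes of glutathione synthesis, thioredoxin recycling and quinone reduction. Much of this control acts on the Nrf2 protein, so that the mRNA of Nfe2l2 is not a measure of its activity. In the nervous system the response is strongest in astrocytes, which supply neurons with precursors of glutathione. Glutamate-cysteine ligase, the rate-limiting enzyme of glutathione synthesis, is a dimer of the catalytic subunit Gclc and the modifier subunit Gclm, and Gclm lowers the feedback inhibition of the enzyme by glutathione.

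The promoters of the genes were searched for the core of the antioxidant response element, TGACNNNGC, on both strands, since this is the sequence that Nrf2 binds with small Maf proteins. The windows ran from 250 bases before to 50 bases after each start in RefSeq (build GRCm38.p6). Windows were given for 7 of the 10 genes, and 4 of these 7 held a match, against 18.5% of 92 other genes of the pathway and 14% of all 27025 genes with a window. The windows of Slc7a11, Nqo1 and Keap1 held none, and bases outside the windows were not searched. In Txnrd1 the match lay in the window chr10:82858956-82859255, and the other windows, with that of its first start (chr10:82833701-82834000), held none. The match of Srxn1 begins after its start, not before it. Entries for Gclc, Gsr and Hmox1 were missing. The matches are shown 5′ to 3′ on the strand that reads as the motif, with the motif in capitals. They lie at chr3:122245417-122245437 (Gclm), chr2:75704889-75704909 (Nfe2l2), chr10:82859108-82859128 (Txnrd1) and chr2:152105546-152105566 (Srxn1).
Gclm: gagagtTGACGGTGCgcccgg
Nfe2l2: cccaccTGACTCCGCcatgcc
Txnrd1: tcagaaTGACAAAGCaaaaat
Srxn1: tcactcTGACCTAGCtgccca

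Gclm is the gene on which the comparison below turns, and its 250 bases before the start (chr3:122245307-122245556, forward strand) are therefore shown whole. The capitals mark the same match, read here from the opposite strand, which begins 134 bases before the start.
Gclm: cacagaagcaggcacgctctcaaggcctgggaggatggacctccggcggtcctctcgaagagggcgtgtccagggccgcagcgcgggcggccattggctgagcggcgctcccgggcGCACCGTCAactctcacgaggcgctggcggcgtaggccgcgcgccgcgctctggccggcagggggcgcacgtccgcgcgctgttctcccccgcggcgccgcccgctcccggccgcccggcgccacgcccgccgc
A match is a description of these letters, not a binding site.

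Library totals were 31494723 to 37080445 counts in SOD1G86R mice and 29333590 to 46003999 counts in WT mice. Sod1 averaged 5256 CPM (read counts scaled to the size of the library by TMM) in SOD1G86R mice and 176 CPM in WT mice, and the counts do not separate the transgene from the mouse gene. As for the tissue, 5 markers of motor neurons summed to 111 to 213 CPM in SOD1G86R mice and 132 to 179 CPM in WT mice. SOD1G86R replicate 4 stood apart from the other SOD1G86R mice. Its 8 markers of sensory ganglion neurons summed to 72.4 CPM, against 8.80 to 9.58 CPM in the other SOD1G86R mice and 10.1 to 10.6 CPM in WT mice. Its 10 microglial markers summed to 521 CPM, against 769 to 1024 CPM in the other SOD1G86R mice and 389 to 510 CPM in WT mice. Its neuronal markers summed to 7044 CPM, against 5297 to 6027 CPM in the other SOD1G86R mice and 6026 to 6548 CPM in WT mice. Sod1 was at 3918 CPM in this mouse, against 4823 to 6415 CPM in the other SOD1G86R mice and 127 to 210 CPM in WT mice. Results that rest on this mouse are given with and without it.

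Gclm fell in SOD1G86R mice, while Gclc, which encodes the catalytic subunit of the same enzyme, did not pass the test. Gclm (ENSMUSG00000028124, chromosome 3 from 122245557 to 122270732) had 47.2, 48.9, 44.0, 55.6 and 50.4 CPM in SOD1G86R mice, against 81.9, 89.6, 88.4, 88.6 and 91.2 CPM in WT mice. No SOD1G86R mouse reached the WT range. The highest of them was replicate 4. The mean was 49.2 ± 4.28 CPM in SOD1G86R mice and 88.0 ± 3.55 CPM in WT mice (SD, n = 5 each), so that the SOD1G86R mean was 56.0% of the WT mean. This is -0.84 on the log2 scale, with a standard error of 0.06 and, in edgeR, an adjusted p = 9.29e-06. Gclm passed the threshold of 0.01 in each of 20 alternative fits, which left out single mice or changed the scaling, filter, tool or design. In bulk tissue, fewer cells of a type and less RNA per cell cannot be told apart. Gm17494, annotated on the opposite strand over part of Gclm, had 1.59 CPM in SOD1G86R mice and 2.57 CPM in WT mice, and the strand setting of the counting is not given in the sources used here.

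Gclc (chromosome 9 from 77754535 to 77794485) had 69.3, 69.3, 63.2, 73.4 and 74.0 CPM in SOD1G86R mice, against 66.0, 70.4, 69.8, 68.6 and 72.0 CPM in WT mice. The groups overlapped throughout. Its log2 fold change was 0.01, with a 95% confidence interval from -0.11 to 0.13 (edgeR adjusted p = 0.946). The ratio of Gclm to Gclc was then taken within each mouse, which removes the scaling of the library. It was 0.681, 0.706, 0.696, 0.757 and 0.681 in SOD1G86R mice, against 1.24, 1.27, 1.27, 1.29 and 1.27 in WT mice. In each SOD1G86R mouse the modifier subunit thus had fewer reads relative to the catalytic subunit than in any WT mouse. The log2 ratio averaged -0.51 ± 0.06 in SOD1G86R mice and 0.34 ± 0.02 in WT mice (SD, n = 5 each), a difference of -0.85. A two-sided exact permutation test over all assignments of the mice gave p = 0.00794, the smallest that 5 mice against 5 allow. That Gclm was lower in these mice was known when the ratio was chosen, so that this p is not independent evidence.

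**Figure D1:**
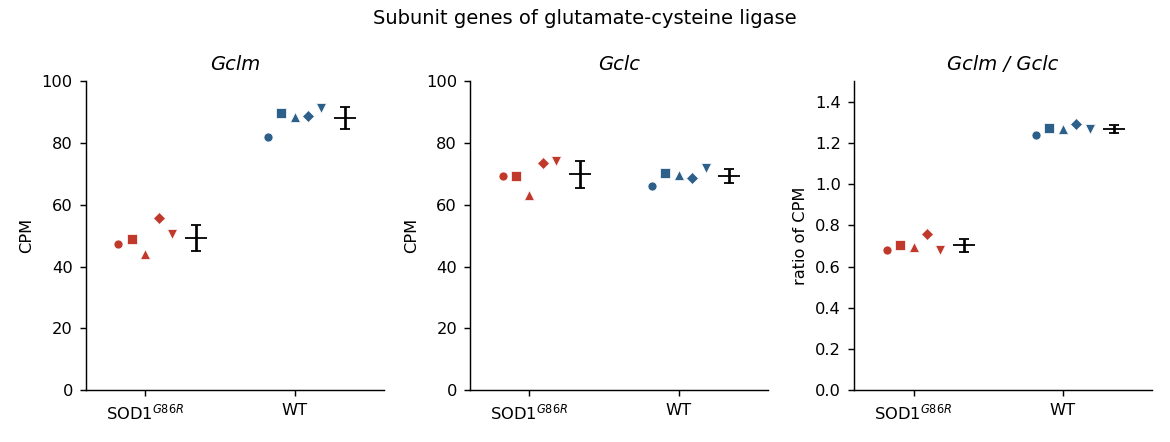
Level of Gclm and Gclc in CPM and the ratio of Gclm to Gclc in each mouse, with SOD1G86R mice in red and WT mice in blue, 1 symbol per replicate number, and the mean and SD (n = 5) as a black bar. Gclm was 44.0 to 55.6 CPM in SOD1G86R mice and 81.9 to 91.2 CPM in WT mice, whereas Gclc overlapped between the groups.

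Of the 10 genes, Gclm was the one that passed the test, and 9 did not (edgeR adjusted p under 0.01). In all genes tested 0.253% were called lower and 0.866% higher, or 1.12% in either direction. Of the 10 genes 0 were called higher by edgeR and 0 by limma voom, while 3 were called higher by DESeq2. Of all genes, edgeR called 147 higher, limma voom 29 and DESeq2 705. At an unadjusted p under 0.05, 5 were higher and 1 lower, against 10.8% and 6.33% of all genes tested. Values above 0 on the log2 scale were found for 9 of the 10, with a median of 0.14 against -0.01 over all genes tested. Groups did not overlap for Gclm, which was lower, and for Txnrd1, which was higher, against 1.84% of all genes that were lower and 3.09% that were higher without overlap (4.93% in either direction). Without SOD1G86R replicate 4, 3 of the 10 were called higher, namely Hmox1, Srxn1 and Nfe2l2. That fit called 782 of all genes higher, against 147 with all mice. Leaving out any of the remaining 9 mice gave 0 of the 10 called higher, and 12 to 32 of all genes.

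**Figure D2:**
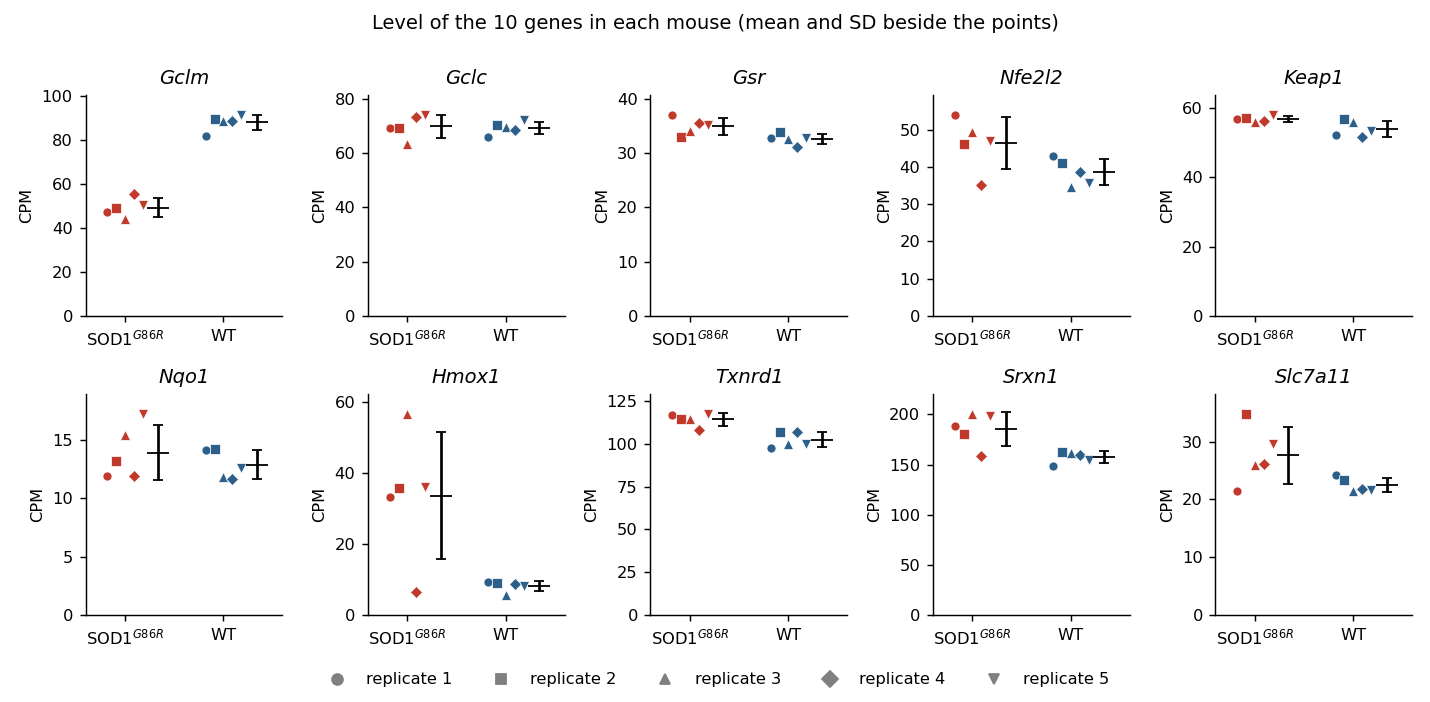
Level in CPM of each of the 10 genes in each mouse, with SOD1G86R mice in red to the left of WT mice in blue, 1 symbol per replicate number, and the mean and SD (n = 5) as a black bar. Every axis starts at 0. SOD1G86R replicate 4 (diamond) lies within the WT range for Hmox1, Nfe2l2 and Srxn1, and above all WT mice for Txnrd1.

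Gclm lies among neighbours that were lower as well. Of the 46 other genes tested whose start lies within 5 Mb of that of Gclm, 24 fell and 0 rose, against 0.253% of all genes tested that fell. Of these 46 genes 40 had a negative log2 fold change, and their median was -0.89. The window was chosen with this stretch of lower genes already known. The 24 genes that fell began between 3.68 Mb before and 4.35 Mb after the start of Gclm, with log2 fold changes from -1.20 to -0.64. Of these 24, 3 changed less than Gclm. With a window of 10 Mb 24 of 101 genes (23.8%) fell and 3 rose, against 52.2% of the 46 genes within 5 Mb that fell.

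Of the 10 tested genes nearest to Gclm, 7 fell and 9 were lower without overlap between the groups. Over all genes tested these shares were 0.253% and 1.84%. Their SOD1G86R means were 49.8 to 65.5% of the WT means (median 52.3%), and Gclm, at 56.0%, lay within this range. Before Gclm, Abca4, a transporter of retinoids, had a log2 fold change of -0.98 (edgeR adjusted p = 0.0289) and Arhgap29 fell by 0.89 on the log2 scale (edgeR adjusted p = 0.00264). Abcd3, a fatty acid transporter of peroxisomes, fell by 0.98 (edgeR adjusted p = 1.10e-06), and F3, the tissue factor that starts blood clotting, by 0.73 (edgeR adjusted p = 0.00665). After Gclm, Dnttip2, a protein of ribosome assembly, fell by 0.98 (edgeR adjusted p = 1.48e-05), Bcar3, an adaptor of focal adhesions, by 0.98 (edgeR adjusted p = 0.000470), and Fnbp1l, which bends membranes in endocytosis, by 1.01 (edgeR adjusted p = 1.10e-06). Pde5a, which breaks down cyclic GMP, fell by 0.89 (edgeR adjusted p = 0.00190). The remaining neighbours were Gm43823, with a log2 fold change of -0.61, and Gm17494, with -0.69 (edgeR adjusted p = 0.226 and 0.0257). F3 lost its call in 10 of 20 alternative fits (adjusted p without single mice 0.00140 to 0.0272 in edgeR), and Arhgap29 and Pde5a in the fit without WT replicate 3 (edgeR adjusted p = 0.0114 and 0.0104). Arhgap29 also lost it with the replicate block (edgeR adjusted p = 0.0137). Past the ends of the stretch, Snx7 was at 101% and Ank2 at 100.5% of the WT mean. Before Snx7 is reached, Gm32444, Gm37928, Gm37773 and Gm26871 were at 49.7, 41.2, 52.4 and 63.1% of the WT mean. They were not called (edgeR adjusted p = 0.0775 to 0.472), and averaged only 0.611 to 2.80 CPM in WT mice. The 3 genes that rose began farther out, 5.47 to 5.54 Mb after Gclm. Tifa, an adaptor of NF-kB signalling, averaged 10.4 CPM in SOD1G86R mice and 6.95 CPM in WT mice (edgeR adjusted p = 0.00488). 1500005C15Rik averaged 0.871 CPM in SOD1G86R mice and 0.0337 CPM in WT mice, and Gm42587 0.456 CPM in SOD1G86R mice and 0.0448 CPM in WT mice (edgeR adjusted p = 2.48e-05 and 0.00190). The genes past the ends were named after their values were seen.

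**Figure D3:**
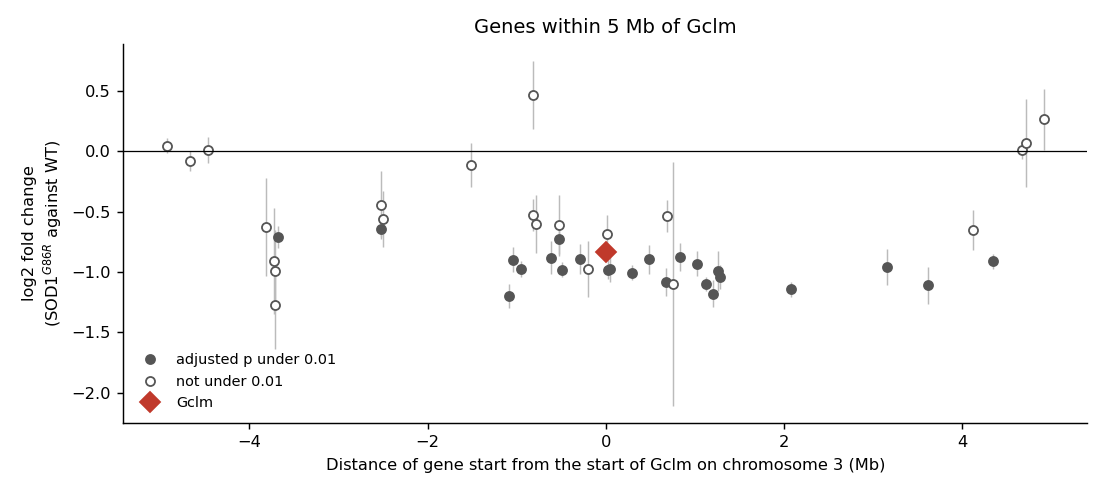
The log2 fold change of SOD1G86R against WT mice for Gclm (red diamond) and the 46 other genes tested within 5 Mb, by the distance of their start from that of Gclm in Mb, with the standard error as a grey bar. Filled points passed an adjusted p of 0.01, and 24 of the 46 neighbours did so, each below 0.

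Slc7a11 is the other member on chromosome 3, and it begins 72.4 Mb from Gclm, outside the stretch. It encodes the cystine-glutamate exchanger that brings in cystine for glutathione synthesis. Slc7a11 (from 49892526 to 50443614) had 21.5, 34.7, 26.0, 26.2 and 29.6 CPM in SOD1G86R mice, against 24.3, 23.4, 21.4, 21.8 and 21.6 CPM in WT mice. Of the SOD1G86R mice 4 lay above the WT range and replicate 1 within it. On the log2 scale the difference was 0.30, with a 95% interval from 0.07 to 0.52 (edgeR adjusted p = 0.153). Gm37854, antisense to Slc7a11, had 0.259 CPM in SOD1G86R mice and 0.145 CPM in WT mice.

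For the regulators, the data were examined for a change in the mRNA of Nrf2 itself or of Keap1. Nfe2l2 (chromosome 2 from 75675513 to 75704641) had 53.9, 46.3, 49.4, 35.2 and 47.0 CPM in SOD1G86R mice, against 42.8, 41.2, 34.6, 38.6 and 35.6 CPM in WT mice. All SOD1G86R mice but replicate 4 were above the WT range. For Nfe2l2 the log2 fold change was 0.27, with a 95% interval from 0.05 to 0.48 (edgeR adjusted p = 0.185). Without SOD1G86R replicate 4 it was 0.35 and Nfe2l2 passed the test (edgeR adjusted p = 0.00939), the lowest of 20 alternatives, whose adjusted p reached 0.367. Keap1 (chromosome 9 from 21229730 to 21239361) had 56.8, 57.3, 56.0, 56.2 and 58.0 CPM in SOD1G86R mice, against 52.2, 57.0, 55.9, 51.6 and 53.5 CPM in WT mice. Keap1 differed by 0.07 on the log2 scale, with a 95% interval from -0.03 to 0.17 (edgeR adjusted p = 0.463), and the groups overlapped. Gm16754, antisense to Keap1, had 0.466 CPM in SOD1G86R mice and 0.516 CPM in WT mice.

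Hmox1 showed the largest difference of the 10 genes, but it did not pass the test over all mice, and 1 SOD1G86R mouse was at the WT level. It encodes heme oxygenase 1, the inducible enzyme that breaks down heme to biliverdin, iron and carbon monoxide, and it lies on chromosome 8 from 75093621 to 75100589. Hmox1 had 33.3, 35.8, 56.5, 6.58 and 35.9 CPM in SOD1G86R mice, against 9.38, 9.09, 5.80, 8.65 and 8.33 CPM in WT mice. In 4 SOD1G86R mice it was above every WT mouse, and replicate 4 lay within the WT range. The means were 33.6 ± 17.8 CPM in SOD1G86R mice and 8.25 ± 1.43 CPM in WT mice (SD, n = 5 each). The difference was 2.03 on the log2 scale, with a 95% interval from 0.96 to 3.10 (edgeR adjusted p = 0.0476). Without SOD1G86R replicate 4 Hmox1 rose by 2.29 on the log2 scale (standard error 0.18, edgeR adjusted p = 7.55e-06), and DESeq2 called it with all mice (adjusted p = 0.000355). Over 20 alternatives the adjusted p ran from 7.55e-06 to 0.23.

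Microglial markers were set beside Hmox1. These 10 markers, none of which was at 0 in every library, summed to 521 to 1024 CPM in SOD1G86R mice and 389 to 510 CPM in WT mice. Of the 10, 3 rose, against 0.866% of all genes tested (median log2 fold change of the list 0.96). At an unadjusted p under 0.05 in edgeR all 10 were higher, against 10.8% of all genes tested. The groups did not overlap for 5 of them, all higher, against 3.09%. Among SOD1G86R mice Hmox1 rose in the order of the sum of these markers, except in the mouse with the highest sum. For sums of 521, 769, 879, 921 and 1024 CPM it was 6.58, 35.8, 35.9, 56.5 and 33.3 CPM. In WT mice, sums of 389, 417, 441, 443 and 510 CPM went with 5.80, 8.33, 9.38, 8.65 and 9.09 CPM of Hmox1. In replicate order, Hmox1 was 3.25, 4.65, 6.13, 1.26 and 4.09% of the sum in SOD1G86R mice. In WT mice it was 2.13, 1.78, 1.49, 1.96 and 1.995%. Relative to the markers Hmox1 was therefore higher than in WT in the same 4 SOD1G86R mice, and lower than in WT in replicate 4. A list of 7 markers of blood monocytes, neutrophils and border macrophages summed to 20.4 to 77.3 CPM in SOD1G86R mice and 15.2 to 59.6 CPM in WT mice, with the highest sum in SOD1G86R replicate 4. S100a8 and S100a9, at 28.3 and 41.4 CPM, made up most of the sum in that mouse. Of the 7, Mrc1, a marker of border macrophages, alone rose (log2 fold change 1.01, edgeR adjusted p = 0.00163). Mrc1 was at 3.96 to 5.47 CPM in SOD1G86R mice, lowest in replicate 4, and 2.05 to 2.79 CPM in WT mice. Cd163, Lyve1 and Ccr2 had log2 fold changes of 0.76, 0.75 and 0.41, and Ly6c2, S100a8 and S100a9 of -0.05, -0.13 and -0.20, none called. Markers of red blood cells, whose hemoglobin is a source of heme, summed to 380 to 2491 CPM in SOD1G86R mice and 884 to 2763 CPM in WT mice, and SOD1G86R replicate 4 had the highest sum of its group. The part of these cells in the level of Hmox1 was not tested.

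**Figure D4:**
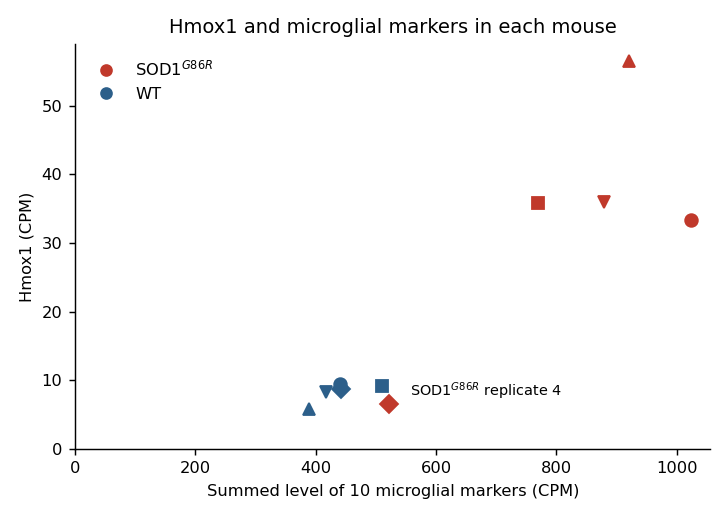
Level of Hmox1 in CPM against the summed level of 10 microglial markers in CPM, 1 point per mouse, with SOD1G86R mice in red, WT mice in blue and 1 symbol per replicate number. Of the SOD1G86R mice 4 lie at 33.3 to 56.5 CPM of Hmox1, and replicate 4 lies beside the WT mice at 6.58 CPM.

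Txnrd1 and Srxn1 belong to the thioredoxin branch of the response. Txnrd1, the cytosolic thioredoxin reductase (chromosome 10 from 82833951 to 82897712), had 117, 114, 114, 108 and 117 CPM in SOD1G86R mice, against 97.6, 107, 99.7, 107 and 100 CPM in WT mice. The groups did not overlap, although the lowest SOD1G86R mouse, replicate 4, was only just above the highest WT mouse. For Txnrd1 the log2 fold change was 0.16, with a 95% interval from 0.06 to 0.26 (edgeR adjusted p = 0.0781). DESeq2 called Txnrd1 (adjusted p = 0.00727), the lowest of 20 alternatives, whose adjusted p reached 0.194. Eid3 is annotated within Txnrd1 on the same strand and was not analysed here. Srxn1, which encodes sulfiredoxin, the enzyme that restores overoxidized peroxiredoxins, lies on chromosome 2 from 152105516 to 152111376. It had 188, 181, 200, 159 and 199 CPM in SOD1G86R mice, against 149, 162, 162, 160 and 155 CPM in WT mice, and replicate 4 alone lay within the WT range. Srxn1 differed by 0.23 on the log2 scale, with a 95% interval from 0.10 to 0.37 (edgeR adjusted p = 0.0545). Srxn1 was called without SOD1G86R replicate 4 (log2 fold change 0.28, edgeR adjusted p = 0.00242) and by DESeq2 (adjusted p = 0.00845), and over 20 alternatives its adjusted p ran from 0.00242 to 0.128.

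Gsr and Nqo1 differed least from WT after Gclc and Keap1. Gsr encodes glutathione reductase, which returns oxidized glutathione to its reduced form, and lies on chromosome 8 from 33652523 to 33698163. It had 36.9, 32.8, 34, 35.5 and 35.2 CPM in SOD1G86R mice, against 32.7, 33.8, 32.6, 31.0 and 32.7 CPM in WT mice, a log2 fold change of 0.10 with a 95% interval from -0.01 to 0.21 (edgeR adjusted p = 0.366). Nqo1, the quinone reductase often used as a readout of Nrf2, lies on the same chromosome from 107388225 to 107403206. It had 11.9, 13.2, 15.4, 11.9 and 17.2 CPM in SOD1G86R mice, against 14.2, 14.2, 11.8, 11.6 and 12.6 CPM in WT mice. The groups overlapped for both genes. Nqo1 differed by 0.11 on the log2 scale, with a 95% interval from -0.13 to 0.35 (edgeR adjusted p = 0.657), so that a rise of the size seen for Hmox1 lay outside this interval.

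Levels of different genes were compared as CPM per kb of exon. Srxn1 was the highest of the 10, at 65.7 ± 5.96 CPM per kb in SOD1G86R mice and 55.9 ± 2.01 CPM per kb in WT mice (SD, n = 5 each). Slc7a11 was the lowest, at 1.98 ± 0.353 CPM per kb in SOD1G86R mice and 1.62 ± 0.0915 CPM per kb in WT mice, and its exons sum to 13922 bases over all annotated transcripts. Gclm was ninth in SOD1G86R mice at 7.82 CPM per kb, next to Nqo1 at 8.95 CPM per kb, whereas in WT mice it stood directly below Txnrd1 at 13.98 CPM per kb, with Txnrd1 at 14.4 CPM per kb. In neither group did Gclm and that neighbour differ beyond the range of the mice. Hmox1 was the second in SOD1G86R mice at 19.2 ± 10.1 CPM per kb, though its range overlapped that of Gclc, and ninth in WT mice at 4.71 ± 0.815 CPM per kb. Gsr, Nfe2l2 and Keap1 lay together at 12.1 to 12.7 CPM per kb in SOD1G86R mice and 10.2 to 11.8 CPM per kb in WT mice, with ranges that overlapped from each to the next.

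The wider pathway was described with 115 genes in 8 lists, written from textbook knowledge. Of the 98 tested that are not among the 10, 2 rose, Sod1 and Hpgds, and 0 fell (edgeR, against 0.866% and 0.253% of all genes tested). At an unadjusted p under 0.05, 20 were higher and 5 lower, against 10.8% and 6.33% of all genes tested. DESeq2 called 7 higher and 2 lower, where it called 705 and 111 of all genes. The counts of limma voom were 1 and 0, and it called 29 of all genes higher. These values for all genes also apply to the counts of each list below. The median log2 fold change of the 98 was -0.01, as over all genes tested. Without SOD1G86R replicate 4, 9 of the 98 rose and 0 fell, where 782 of all genes rose and 86 fell. Sod1 is the transgene's own gene and no readout of the pathway.

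Among 16 tested genes of Nrf2 control, 0 passed edgeR's test, 4 were higher and 0 lower at an unadjusted p under 0.05, and DESeq2 called 1 and limma voom 0. Maff, a small Maf protein that pairs with Nrf2 or with the repressor Bach1, averaged 7.98 ± 4.43 CPM in SOD1G86R mice and 2.11 ± 0.253 CPM in WT mice (SD, n = 5 each). In SOD1G86R replicate 4 Maff was at 2.24 CPM and in the other SOD1G86R mice at 7.10 to 14.7 CPM, while WT mice ranged from 1.80 to 2.35 CPM. Its log2 fold change was 1.93 (edgeR adjusted p = 0.0210), and 2.16 without that mouse (edgeR adjusted p = 1.75e-05, with 1.75e-05 to 0.111 over 20 alternatives). Bach1 had a log2 fold change of 0.21 (edgeR adjusted p = 0.193).

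Of 17 tested genes of glutathione synthesis and turnover, Gclm fell, 0 rose, and 6 were higher at an unadjusted p under 0.05 (DESeq2 called 2 higher and 1 lower, limma voom 0 and 1). Chac1, which degrades glutathione in the cytosol, had 9.37 to 15.0 CPM in SOD1G86R mice and 7.23 to 9.20 CPM in WT mice. The groups did not overlap, and differed by 0.58 ± 0.12 on the log2 scale (standard error, edgeR adjusted p = 0.0176). Ggt5, an extracellular enzyme that acts on glutathione conjugates, had a log2 fold change of 0.78 (edgeR adjusted p = 0.0569).

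Of 11 peroxidase and peroxiredoxin genes 0 passed in edgeR, while 1 was higher at an unadjusted p under 0.05, the same number as by DESeq2, and 0 by limma voom. Prdx6, a peroxiredoxin abundant in astrocytes, averaged 596 ± 159 CPM in SOD1G86R mice and 401 ± 39.3 CPM in WT mice (SD, n = 5 each), a log2 fold change of 0.57 (edgeR adjusted p = 0.109). In replicate 4 it was 352 CPM, against 533 to 759 CPM in the other SOD1G86R mice and 351 to 450 CPM in WT mice. Reads of its pseudogenes may be shared with it. The 8 astrocyte markers, none at 0 in every library, summed to 8998 to 12883 CPM in SOD1G86R mice and 8389 to 9924 CPM in WT mice, with 8998 CPM in SOD1G86R replicate 4. At an unadjusted p under 0.05 in edgeR, 3 of the 8 were higher (Gfap, Aqp4 and Aldh1l1) and 1 lower (S100b, log2 fold change -0.20). Slc1a2, Slc1a3, Gja1 and Aldoc had log2 fold changes of 0.02, 0.03, -0.02 and -0.02. Aqp4, the water channel of astrocyte endfeet, did not overlap between the groups, at 733 to 888 CPM in SOD1G86R mice and 549 to 680 CPM in WT mice (edgeR adjusted p = 0.0156). Gfap, the intermediate filament of astrocytes, had 2418 CPM in SOD1G86R replicate 4, against 4443 to 6075 CPM in the other SOD1G86R mice and 2232 to 3076 CPM in WT mice (edgeR adjusted p = 0.0665). Of the 8 markers Gfap differed most in CPM, with means of 4497 CPM in SOD1G86R mice and 2619 CPM in WT mice. The part of astrocytes in the level of Prdx6 was not tested. Prdx5 and Prdx3, peroxiredoxins of mitochondria, had log2 fold changes of -0.10 and -0.11 (edgeR adjusted p = 0.567 and 0.580).

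Of 19 tested glutathione transferase genes 1 rose and 0 fell, while 2 were higher and 2 lower at an unadjusted p under 0.05 (DESeq2 called 1 higher and 1 lower, limma voom 0). Hpgds, which belongs to this family by sequence and makes prostaglandin D2 in hematopoietic cells and microglia, had 7.20 to 9.60 CPM in SOD1G86R mice and 4.74 to 6.42 CPM in WT mice. The groups did not overlap, and Hpgds rose by 0.68 ± 0.11 on the log2 scale (standard error, edgeR adjusted p = 0.00625). Without single mice its adjusted p ran from 0.000217 to 0.0271, and it passed only in the fit without SOD1G86R replicate 4. Gstt3 and Gstm7 had log2 fold changes of -0.39 and -0.31 (edgeR adjusted p = 0.0378 and 0.0662), and genes of the Gstm family are so alike that reads may be split between them.

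Of 13 genes of the thioredoxin and glutaredoxin systems 0 passed in edgeR, 3 were higher and 2 lower at an unadjusted p under 0.05, DESeq2 called 2 higher and 1 lower, and limma voom 0. Glrx2, a glutaredoxin of mitochondria and nuclei, had 37.9 to 41.2 CPM in SOD1G86R mice and 43.5 to 51.2 CPM in WT mice, with no overlap and a log2 fold change of -0.22 (edgeR adjusted p = 0.0465). For the supply of NADPH, which both systems consume, 0 of 9 genes passed in edgeR, DESeq2 or limma voom, and 3 were higher at an unadjusted p under 0.05. These were H6pd, with a log2 fold change of 0.35, G6pdx, with 0.21, and Pgd, with 0.16 (edgeR adjusted p = 0.0631, 0.219 and 0.155).

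Of 18 genes of heme, quinone and other Nrf2 targets 0 passed in edgeR, 4 were higher and 1 lower at an unadjusted p under 0.05, DESeq2 called 2 higher and limma voom 0. Osgin1, a growth inhibitor induced by oxidative stress, had 1.67, 1.82, 1.79, 1.04 and 2.34 CPM in SOD1G86R mice, against 0.921, 0.889, 1.002, 1.02 and 1.06 CPM in WT mice. Replicate 4 again lay within the WT range, and the log2 fold change was 0.82 (edgeR adjusted p = 0.0289). Cbr1, a carbonyl reductase, was lower without overlap, with a log2 fold change of -0.26 (edgeR adjusted p = 0.0768). Among the 5 genes of catalase and the superoxide dismutases, Sod1 alone passed, whereas Sod3, the extracellular enzyme, and Cat, catalase of peroxisomes, had log2 fold changes of 0.23 and -0.09 (edgeR adjusted p = 0.225 and 0.503). Without SOD1G86R replicate 4 the genes outside the 10 that rose were Maff, Slc3a2, Ggt5, Chac1, Prdx6, Hpgds, Ftl1, Osgin1 and Sod1.

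**Figure D5:**
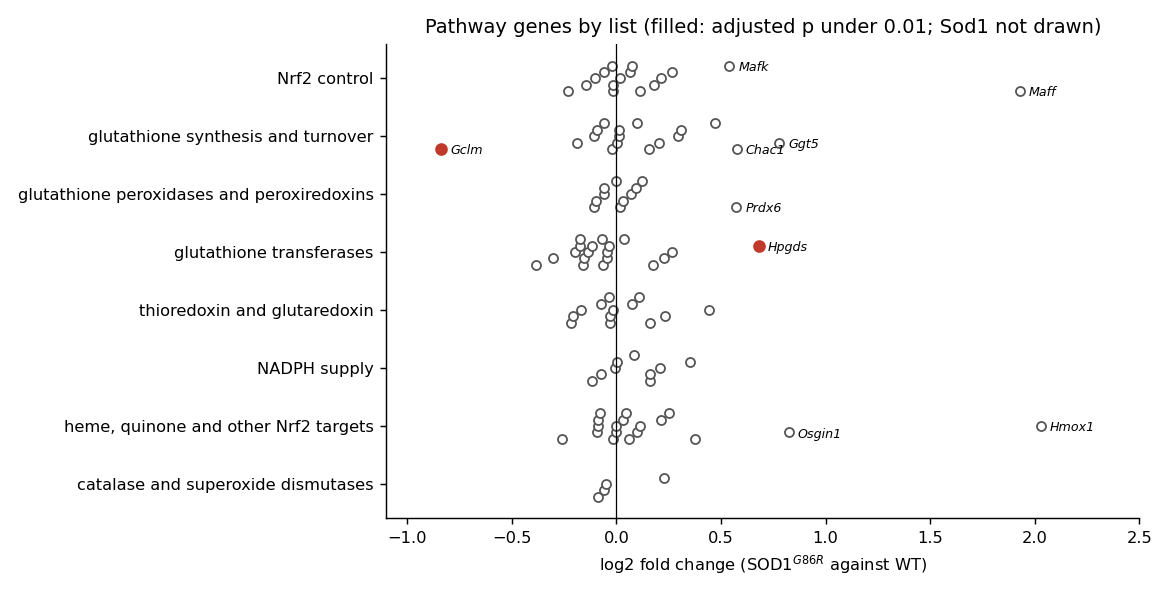
The log2 fold change of SOD1G86R against WT mice for the tested genes of 8 pathway lists, 1 row per list and 1 point per gene, with Sod1 left out. Filled points passed an adjusted p of 0.01, namely Gclm at -0.84 and Hpgds at 0.68, while Hmox1 at 2.03 and Maff at 1.93 lie farthest to the right and did not pass.

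The genes whose levels followed Gclm and Hmox1 most closely over the 10 mice were then sought, as a description in which genotype is shared by all points. The 5 closest to Gclm were Camk2d (Pearson r = 0.989), Mettl14 (0.986), Ptbp2 (0.978), Tmem56 (0.977) and Fnbp1l (0.977), all on chromosome 3. The 5 closest to Hmox1 were Ifi27 (Pearson r = 0.990), Phf11b (0.984), Ang (0.984), Cd86 (0.980) and Casp12 (0.980), and they lie on 4 different chromosomes. Over the 9 mice without SOD1G86R replicate 4, Arl11 (Pearson r = 0.995), Lpxn (0.991), Lair1 (0.990) and Tyrobp (0.990) were closer to Hmox1 than Ifi27 (0.989).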

How the data were processed

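Total RNA of the lumbar spinal cord of 5 SOD1G86R and 5 WT mice was sequenced, 1 library per mouse. The authors deposited raw read counts per gene. According to the submitters' notes, reads were mapped to mm10 with TopHat2 (2.0.14) and counted with HTSeq (0.6.1) on Ensembl release 81. Kit, strandedness and read filters were not given in the sources used here. Of 32506 genes, 32247 were matched to a symbol.

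Counts were tested in R (4.3.3) with the quasi-likelihood test of edgeR (4.0.16), after filterByExpr and TMM scaling, with Benjamini-Hochberg adjustment over 16974 genes and a threshold of 0.01. Standard errors are the absolute log2 fold change divided by the square root of F. CPM values are TMM-scaled. The edgeR p-values set the difference between the groups against the spread between these mice, estimated with information shared across genes. Alternatives were DESeq2 (1.42.0), limma voom (3.58.1), other scalings, no filter, a threshold of 0.05, a replicate block, no robust estimation, removal of Sod1 and Gm8566, and removal of each mouse in turn. Of the 45 pairs of libraries none held identical values. The genes, lists and window around Gclm were chosen with earlier results of these data known. The genes named were the 10 genes, in each list those past the threshold and otherwise those with the smallest p up to 3, the 5 tested genes nearest to Gclm on each side, the 5 with the highest Pearson correlation of log2 CPM (prior count 2) with Gclm and with Hmox1, and Sod1.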

Additional observations from a re-analysis of the deposited data

How the results depend on the processing

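Gclm fell in each of 20 alternative fits, with a log2 fold change of -0.89 to -0.80 without single mice. The 24 genes that fell within 5 Mb of it numbered 17 to 25 without single mice, and with a window of 10 Mb 23.8% fell. The log2 ratio of Gclm to Gclc was -0.88 to -0.84 without single mice. Of the 10 genes, 3 were called higher by DESeq2, 1 at a threshold of 0.05 and 0 to 3 without single mice, the 3 being without SOD1G86R replicate 4. Hmox1 passed at a threshold of 0.05 (log2 fold change 2.03) and with DESeq2 (2.03), and ranged over 1.76 to 2.29 without single mice. The log2 fold change of Gclc, never called, ranged over -0.014 to 0.044 without single mice and was negative without SOD1G86R replicate 4, SOD1G86R replicate 5 or WT replicate 1. Of the other pathway genes, 7 were called higher by DESeq2, 1 by limma voom, 5 at a threshold of 0.05, 1 without Sod1 and Gm8566 and 1 to 9 without single mice, while 2 were called lower by DESeq2 and 2 at a threshold of 0.05. Of all genes, against 147 higher and 43 lower, DESeq2 called 705 higher and 111 lower, limma voom 29 higher, a threshold of 0.05 gave 654 higher and 127 lower, edgeR without robust estimation 254 higher, and fits without single mice 12 to 782 higher and 19 to 86 lower. The cause of these differences was not tested. Same-numbered mice did not deviate together (r = 0.05, 0.26, -0.14, 0.06 and -0.37 for replicates 1 to 5), and only replicate 1 correlated best with its own number. With the replicate block, Gclm had a log2 fold change of -0.84 (edgeR adjusted p = 0.00012) and Hmox1 1.82 (edgeR adjusted p = 0.23), and the log2 ratio of Gclm to Gclc differed by -0.85 (exact sign-flip permutation p = 0.0625, the smallest that 5 pairs allow). Other scalings moved the median of all genes by less than 0.1 on the log2 scale.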
